A study of Bombyx mori with 6 samples.

Results

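What the fat body of the silkworm, Bombyx mori, transcribes was described in the 3 RNA sequencing libraries labelled siNC, out of 6 libraries in the series. They were chosen by their titles alone, and the 3 libraries of the other group, in which the gene UFBP1 was targeted, give no value here. The siNC libraries carry a negative control small interfering RNA (siRNA). Per the labels' protocols, P50 larvae on day 3 of instar 5 were each injected with 2.5 µg of siRNA. All larvae then received 5 µL of a suspension of the baculovirus BmNPV 12 h after the siRNA, so controls made by this protocol are virus-exposed and not untreated. The experiment used 30 larvae, kept at 26 °C and 75% humidity on mulberry leaves. Fat body was taken at 24, 48 and 72 h, and no label says which time a library stands for or how many larvae it pools. The labels name the fat body as tissue and also BmN, an ovary-derived silkworm cell line, and the extraction protocol describes transfected BmN cells. Nothing states that the libraries come from separate animals, so the SDs below measure the spread between libraries, which may be technical.

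The insect fat body combines tasks that vertebrates divide between liver and adipose tissue. It stores fat and glycogen, makes trehalose and lipoproteins for the hemolymph, and secretes immune proteins. In the last larval instar of moths it also produces storage proteins (hexamerins) and 30 kDa lipoproteins, which are kept as amino acid reserves for metamorphosis.

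Levels are in FPKM, fragments per kilobase of gene model scaled to library size, which allows genes of different length to be compared. Values per library are listed in the order siNC-1, siNC-2 and siNC-3. The libraries held 28098267, 31760120 and 27100565 counts, so that 3 counts correspond to 0.107, 0.0945 and 0.111 CPM (counts scaled to the library total), the limit of detection per library for counting error alone. Of 16877 gene models, 11335 to 11606 had at least 1 count, and 6442 ± 53.4 (SD, n = 3) reached 1 FPKM. The levels fell off steeply, with 1941 to 1996 models at 10 FPKM or more, 328 to 334 at 100, 26 or 27 at 1000 and 9 at 10000. All 9 models above 10000 FPKM were storage proteins or 30 kDa lipoproteins. The virus's own transcripts were not analysed here.

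**Figure D1:**
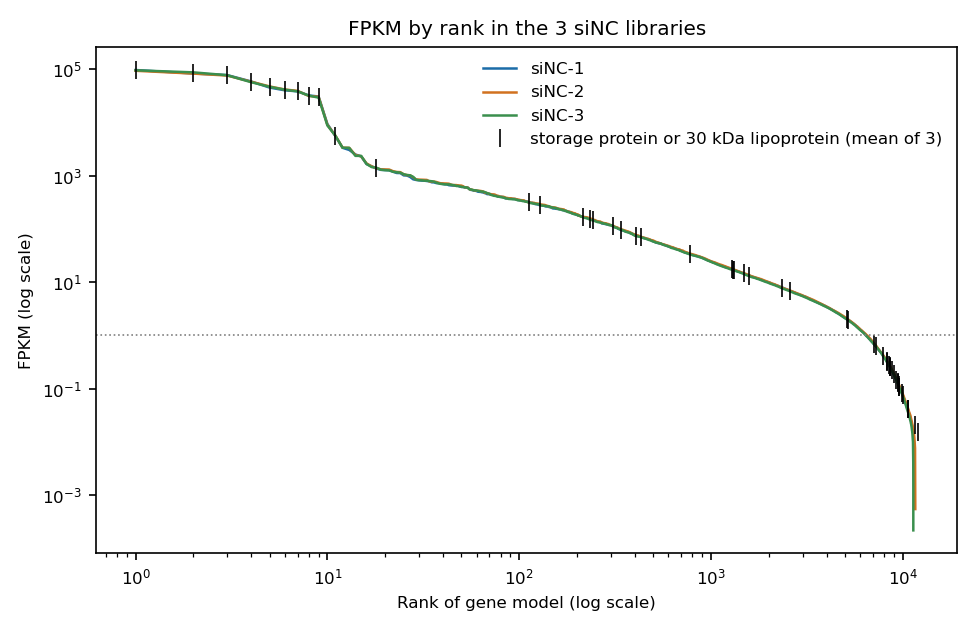
FPKM of every gene model with a value above 0 against its rank in each siNC library, both on log scales; the vertical ticks mark storage proteins and 30 kDa lipoproteins at their mean rank, and the dotted line is 1 FPKM. The 3 lines lie on top of each other down to about 1 FPKM, and the 9 highest ranks are all ticked.

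Storage proteins and 30 kDa lipoproteins together held 74.1%, 73.6% and 74.3% of the summed FPKM, a mean of 74.0% ± 0.320 (SD, n = 3). The 61 models of 30 kDa lipoproteins, of which 23 reached a mean of 1 FPKM, took 55.7% ± 0.569, and the 7 storage protein models 18.3% ± 0.310. The highest single model was a 30 kDa lipoprotein, 19G1-like (KWMTBOMO11904), at 96249, 93127 and 95043 FPKM. Storage protein 1 (KWMTBOMO13992), a female-biased hexamerin, stood at 45049, 47308 and 46575 FPKM, the siNC-1 library being the lowest. The sources used here do not say how the authors' counting treated reads shared between related models, so single values within these families are less certain than the sums. All shares from here on are shares of the remaining FPKM, over the 16809 models left once these 68 were set aside. Of the 16809 models, 6424 (38.2%) had a mean of at least 1 FPKM. Numbers of models at 1 FPKM or more in a group are to be read against this percent.

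The label was set against marker lists, which were chosen with earlier results of these data known. A fat body list of 87 models (storage proteins, 30 kDa lipoproteins, apolipophorins, transferrin, perilipin, the adipokinetic hormone receptor and trehalose-phosphate synthase, among others) took 74.3% ± 0.317 of all FPKM (SD, n = 3), with 43 models at 1 FPKM or more and 14 at 0 in all libraries. Nearly all of this share was that of the 68 storage protein and 30 kDa lipoprotein models, 74.0% ± 0.320. The sum is therefore not a further check of the label beyond those 68 models. Perilipin (KWMTBOMO03244), which coats lipid droplets, had 163, 166 and 159 FPKM. A pair of models of the adipokinetic hormone receptor, through which fat is mobilised, averaged 39.3 ± 0.279 (KWMTBOMO11286) and 31.3 ± 0.725 FPKM (KWMTBOMO11288). Vitellogenin, the yolk protein precursor of females, had 5 models, none of which reached 1 FPKM.

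Markers of other tissues took small shares of all FPKM, a total of which 74.0% was storage proteins and 30 kDa lipoproteins. Cuticle and epidermis genes, with 27 of 171 models at 1 FPKM or more, took 0.124% ± 0.00175 of all FPKM and the silk gland list 0.0657% ± 0.00140 (SD, n = 3 each). The lists for hemocytes (18 of 38 models at 1 FPKM or more), muscle (14 of 35), midgut (4 of 86), ovary and germ line (9 of 43), testis (10 of 122) and nervous tissue (3 of 25) each took less, between 0.00617% for midgut and 0.0343% for muscle, with hemocytes at 0.0173%, ovary and germ line at 0.00686%, testis at 0.00738% and nervous tissue at 0.00746% of all FPKM. By counts, which are not divided by length, the order differed. Muscle took 0.115% ± 0.00237 of all counts, above cuticle and epidermis at 0.0540% and the silk gland list at 0.0518%. By the percent of models at 1 FPKM or more, not all lists lay below the 38.2% over all models. The hemocyte (47.4%) and silk gland (44.4%) lists lay above it, near the 49.4% of the fat body list, and muscle lay close to it. Cuticle and epidermis, ovary and germ line, testis, nervous tissue and midgut lay below it, between 4.65% for midgut and 20.9% for ovary and germ line. Of the midgut list, 50 models were at 0 in all 3 libraries, trypsins, chymotrypsins and aminopeptidases N among them, and 23 of the germ line list and 70 of the testis list were at 0. The germ line list bears on BmN, and its highest members were vasa-like (KWMTBOMO11560), an RNA helicase of germ cells, at 14.3 ± 0.357 FPKM, a chorion protein (KWMTBOMO00739) at 10.2 ± 1.74 FPKM and maternal protein tudor (KWMTBOMO06482) at 6.22 ± 0.277 FPKM. Among the highest members of the muscle list were titin (KWMTBOMO11519) at 46.7 ± 1.47 FPKM and troponin I (KWMTBOMO08034) at 43.6 ± 1.10 FPKM. The median over the 35 muscle models was 0.591 FPKM. Of these models 5 were at 0 in all libraries, among them other titin models, troponin C (KWMTBOMO04728) and tropomyosin models. In such bulk RNA, fewer cells of a type and less RNA per cell cannot be told apart.

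Silk genes were uneven. The fibrohexamerin model KWMTBOMO08316 stood at 422, 419.5 and 403 FPKM and made up 91.8% of the FPKM of the 9 silk models. Its partners in the fibroin complex of the silk gland were far lower: the fibroin light chain (KWMTBOMO08464) had 16.7, 17.1 and 18.0 FPKM, and the fibroin heavy chain (KWMTBOMO15365) had 4.66, 4.74 and 4.09 FPKM. A second fibrohexamerin (KWMTBOMO01001) had 14.3 ± 0.983 FPKM (SD, n = 3). Sericin 2 (KWMTBOMO06334), a silk glue protein, was at 0 in all libraries. Which tissue the fibrohexamerin reads come from was not tested.

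Outside the bulk proteins, transcription was still concentrated in few genes. The 10 highest models held 15.3% ± 0.124 of the remaining FPKM, the 100 highest 42.7% ± 0.165 and the 1000 highest 81.8% ± 0.135 (SD, n = 3 each). Of the 30 highest in each library, 28 were shared by all 3 libraries, and 97 of the 100 highest. Ribosomal proteins supplied 33 of the 100 highest by mean, protease inhibitors and translation factors 5 each, and 9 had no described product. The coefficient of variation (CV, SD over mean) of the 30 highest ran from 0.427% to 5.56%, with a median of 2.33%. Among these 30, 20 of the 29 neighbouring pairs in the order had overlapping ranges, so the order within those pairs is not resolved by 3 libraries. The ranges of the other pairs did not overlap, that of the first and second place among them.

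**Figure D2:**
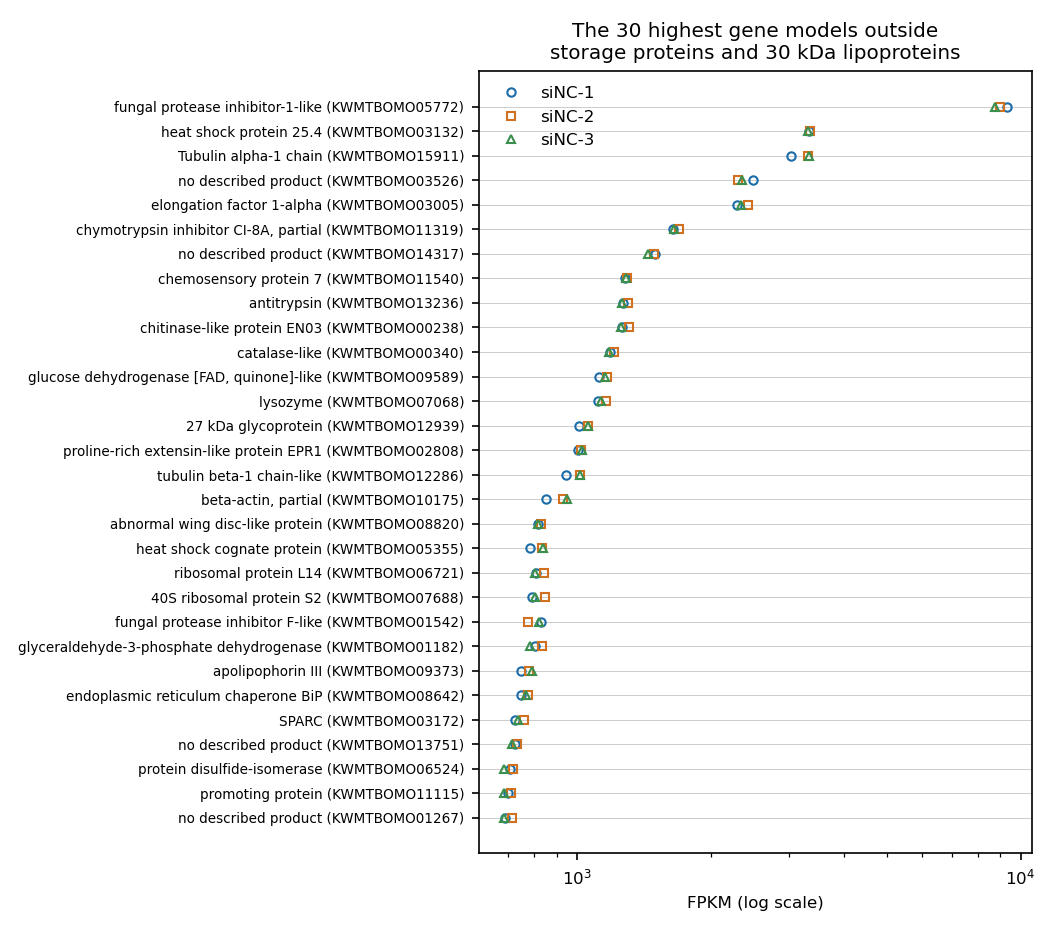
FPKM (log scale) of the 30 gene models with the highest mean FPKM outside storage proteins and 30 kDa lipoproteins, with 1 symbol for each siNC library. The fungal protease inhibitor-1-like gene lies between 8747 and 9315 FPKM, apart from the heat shock protein 25.4 gene at 3320 to 3348 FPKM, and the ranges of 20 of the 29 neighbouring pairs overlap.

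Protease inhibitors were the second largest functional group by FPKM, at 8.06% ± 0.183 of the remaining FPKM (SD, n = 3), with 24 of 47 models at 1 FPKM or more. By counts, which are not divided by length, they took 3.92% ± 0.0770 and came after ribosomal proteins (7.32%), cytoskeletal genes (4.87%) and translation factors (4.58%). A single gene made up 62.5% of it. That gene, fungal protease inhibitor-1-like (KWMTBOMO05772), had 9315, 8988 and 8747 FPKM, highest in siNC-1 and lowest in siNC-3, and alone took 5.04% of the remaining FPKM. Secreted inhibitors of this kind act in the hemolymph against the proteases of fungi. A relative, fungal protease inhibitor F-like (KWMTBOMO01542), had 829, 773 and 819.7 FPKM, here lowest in siNC-2. Chymotrypsin inhibitor CI-8A (KWMTBOMO11319) followed the leading gene at 1647, 1695 and 1658 FPKM, and antitrypsin (KWMTBOMO13236), a serpin directed at trypsin, at 1270, 1303 and 1265 FPKM. Antitrypsin made up 74.8% of the FPKM of the serpins, of which 10 of 26 models (38.5%) reached 1 FPKM, near the 38.2% over all models. The proteases themselves were scarce, since 20 of 111 serine protease models reached 1 FPKM, 52 were at 0 in all libraries, and the group took 0.236% ± 0.00243. Its highest members were CLIP-domain proteases, which act in hemolymph cascades: clip domain serine protease 11 (KWMTBOMO14542) averaged 92.6 ± 1.89 FPKM and CLIP domain-containing serine protease 2 (KWMTBOMO15224) 91.4 ± 0.135 FPKM (SD, n = 3 each).

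Carriers of pigments, metals, hormones and small ligands took 2.36% ± 0.00640 of the remaining FPKM (SD, n = 3). Of their models 32 of 73 (43.8%) were at 1 FPKM or more, near the 38.2% over all models. Chemosensory protein 7 (KWMTBOMO11540), a small soluble ligand-binding protein, led them at 1282, 1299 and 1292 FPKM and made up 97.7% of the FPKM of 12 chemosensory protein models. Ommochrome-binding proteins, which bind ommochrome pigments, had 6 of 9 models at 1 FPKM or more, the highest (KWMTBOMO10273) at 642, 656 and 629 FPKM. Transferrin (KWMTBOMO13908), which binds iron in the hemolymph, averaged 501 ± 14.6 FPKM, and all 4 ferritin models, which store iron, were above 1 FPKM. Odorant receptors (0 of 18) and gustatory receptors (0 of 32) did not reach 1 FPKM, and of 59 chemoreceptor models in all, ionotropic receptor 75a-like (KWMTBOMO07553) alone did, at 7.57 ± 0.650 FPKM.

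Lipid carriers and lipid droplet proteins took 1.18% ± 0.0144 of the remaining FPKM and 2.55% ± 0.0340 of the remaining counts (SD, n = 3 each). Of their models 17 of 37 (45.9%) were at 1 FPKM or more, against 38.2% over all models. Apolipophorin III (KWMTBOMO09373), the exchangeable apolipoprotein that joins lipophorin when fat is exported, had 749, 778 and 793 FPKM. The precursor of the large lipophorin subunits (KWMTBOMO15892) had 333, 348 and 345 FPKM. Both genes were lowest in siNC-1. Acyl-CoA-binding protein (KWMTBOMO05950), which carries activated fatty acids within cells, averaged 389 ± 14.3 FPKM and sterol carrier protein x (KWMTBOMO01516), a peroxisomal thiolase, 136 ± 3.25 FPKM. None of 6 fatty acid-binding protein models reached 1 FPKM, and 5 of them were at 0.

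Antimicrobial proteins took 1.16% ± 0.0121 of the remaining FPKM and 0.576% ± 0.00828 of the remaining counts (SD, n = 3 each), and 14 of 17 models were at 1 FPKM or more. Lysozyme (KWMTBOMO07068), which cleaves bacterial cell walls, had 1117, 1161 and 1135 FPKM and made up 54.7% of the group; a second lysozyme (KWMTBOMO01155) had 402, 402 and 371 FPKM. Lebocin-3 (KWMTBOMO05616), a proline-rich antibacterial peptide of the silkworm, had 195, 208 and 196 FPKM. All 6 gloverins, glycine-rich antibacterial proteins of moths, were above 1 FPKM. Gloverin 4 (KWMTBOMO16426) had 64.7, 64.5 and 64.0 FPKM, while gloverin 2 (KWMTBOMO10105) had 24.9, 27.4 and 19.1 FPKM and was among the genes of largest spread. How reads shared between gloverins were counted is not stated.

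Recognition and signalling genes of immunity took 0.720% ± 0.00454 (SD, n = 3), with 25 of 50 models at 1 FPKM or more. C-type lectin 11 (KWMTBOMO05498), a sugar-binding protein, had 327, 312 and 295 FPKM, highest in siNC-1. Peptidoglycan recognition protein (KWMTBOMO04838), a sensor of bacterial walls, ran the other way at 121, 128 and 137 FPKM. Beta-1,3-glucan-binding protein (KWMTBOMO06450), which binds fungal walls, averaged 73.6 ± 2.21 FPKM. The melanization genes, whose phenoloxidases are known as products of hemocytes, took 0.0482% ± 0.00101, with 10 of 32 models at 1 FPKM or more. Their highest member, yellow-c (KWMTBOMO13038), had 49.2, 46.2 and 45.9 FPKM and held 54.5% of the group, and phenoloxidase subunit 2 (KWMTBOMO09804) had between 3.88 and 4.13 FPKM. The larval protocol gives both siRNA and virus, and the part of either in the immune genes' levels was not tested.

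Secreted growth factors and cytokines took 1.02% ± 0.0111 of the remaining FPKM (SD, n = 3), with 7 of 21 models (33.3%) at 1 FPKM or more, near the 38.2% over all models. Chitinase-like protein EN03 (KWMTBOMO00238), of the imaginal disc growth factor kind, had 1263, 1311 and 1254 FPKM and held 70.1% of the group. An insulin-like peptide (KWMTBOMO00268) had 336, 345 and 328 FPKM. The bombyxins, insulin-like peptides known from the silkworm brain, had 2 of 15 models at 1 FPKM or more and 10 at 0. Growth/differentiation factor 8 (KWMTBOMO15969), of the TGF-beta family, averaged 60.5 ± 1.47 FPKM and insect cytokine precursor uENF2 (KWMTBOMO07837) 73.0 ± 2.21 FPKM.

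Basement membrane and matrix genes took 1.23% ± 0.0156 of the remaining FPKM and 3.36% ± 0.0291 of the remaining counts (SD, n = 3 each). SPARC (KWMTBOMO03172), a collagen-binding glycoprotein, had 723, 758 and 737 FPKM. The chains of collagen IV, the network collagen of basement membranes, had 427, 443 and 436 FPKM (alpha-1, KWMTBOMO01975) and 279.7, 291 and 293 FPKM (alpha-2, KWMTBOMO01973). Each of these genes was lowest in siNC-1, by a few percent.

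The largest functional group was the cytosolic ribosome. All 77 ribosomal protein models were above 1 FPKM, with a median of 295 FPKM, and together they took 12.9%, 12.9% and 13.0% of the remaining FPKM, a mean of 12.9% ± 0.0803 (SD, n = 3). No single gene dominated, as the highest, L14 (KWMTBOMO06721) at 806, 840.0 and 802 FPKM, held 3.52% of the group. Their share of the remaining counts was lower, 7.32% ± 0.0271. All 68 mitochondrial ribosomal protein models also reached 1 FPKM, at a median of 10.8 FPKM, and took 0.437% ± 0.00303 of the remaining FPKM and 0.282% ± 0.00323 of the remaining counts. Translation factors took 3.65% ± 0.0299, with 56 of 61 models at 1 FPKM or more. Elongation factor 1-alpha (KWMTBOMO03005), which brings aminoacyl-tRNA to the ribosome, had 2292, 2434 and 2348 FPKM, 36.0% of that group, and elongation factor 2 (KWMTBOMO11731), which moves the ribosome along, had 495, 523 and 517 FPKM. All 40 tRNA synthetases reached 1 FPKM, with a median of 6.47 FPKM.

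Nearly all listed genes of the secretory pathway reached 1 FPKM. ER chaperones and foldases, which fold secreted proteins, took 1.65% ± 0.0146 of the remaining FPKM (SD, n = 3), with 21 of 22 models at 1 FPKM or more. BiP (KWMTBOMO08642), the HSP70 of the endoplasmic reticulum (ER), had 746, 775 and 767 FPKM, and protein disulfide-isomerase (KWMTBOMO06524), which forms disulfide bonds, 706, 717 and 686 FPKM. Calreticulin (KWMTBOMO12902), a lectin chaperone, averaged 379 ± 14.8 FPKM. All 40 models of ER translocation and glycosylation were above 1 FPKM, at a median of 35.9 FPKM, led by the beta subunit of the signal sequence receptor (KWMTBOMO03113) at 237 ± 2.63 FPKM and the channel subunit Sec61 alpha (KWMTBOMO12895) at 228 ± 3.87 FPKM. Vesicle transport genes followed with 32 of 33 models at 1 FPKM or more and a median of 21.6 FPKM. Of the secreted products, storage protein 1 (KWMTBOMO13992) lay far above this machinery, at a mean of 46311 FPKM. Transferrin lay within its range, at 501 ± 14.6 FPKM against 763 ± 14.9 FPKM for BiP and 379 ± 14.8 FPKM for calreticulin.

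UFMylation attaches the small modifier UFM1 to proteins, much of it at the ER, and UFBP1 (also named DDRGK1) is a component of its ligase. In the control libraries 7 of its 8 models were at 1 FPKM or more, with a median over the 8 of 11.9 FPKM, against 0.287 FPKM over all models, and together they took 0.0661% ± 0.00208 of the remaining FPKM (SD, n = 3). UFBP1 (KWMTBOMO13599) was the highest of them at 52.8, 45.8 and 48.8 FPKM, 41.5% of the group, with siNC-1 the highest library. The other members formed a lower tier: the protease UFSP2 (KWMTBOMO07886) averaged 18.2 ± 0.488 FPKM, the ligase partner CDK5RAP3 (KWMTBOMO03271) 15.9 ± 1.30 FPKM, the conjugating enzyme UFC1 (KWMTBOMO14218) 12.4 ± 1.19 FPKM, the ligase UFL1 (KWMTBOMO13712) 11.4 ± 0.466 FPKM and the modifier UFM1 itself (KWMTBOMO08227) 5.79 ± 0.538 FPKM. UFBP1 did not overlap with any of them over the 3 libraries, whereas CDK5RAP3 at 14.7, 17.3 and 15.6 FPKM came close to UFSP2 at 18.2, 18.7 and 17.8 FPKM.

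Heat shock proteins of the cytosol and mitochondria took 3.72% ± 0.0326 of the remaining FPKM (SD, n = 3), with 57 of 66 models at 1 FPKM or more. Heat shock protein 25.4 (KWMTBOMO03132), a small chaperone that holds unfolding proteins in solution, was the second highest gene outside the bulk proteins. It had 3329, 3348 and 3320 FPKM, which is 1.86% of the remaining FPKM, and a CV of 0.427% that was close to the 0.338% expected from counting alone. All 9 small heat shock proteins were above 1 FPKM. The constitutive heat shock cognate protein (KWMTBOMO05355) had 781, 836 and 837 FPKM and heat shock protein 83 (KWMTBOMO16087), the HSP90 of insects, 661, 679 and 676 FPKM.

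Protein turnover took smaller shares, with the proteasome and ubiquitin at 1.36% ± 0.00411 and the lysosome and proton pump at 1.11% ± 0.00700 (SD, n = 3 each). Proteasome subunits were expressed together, with 37 of 38 models at 1 FPKM or more and a median of 28.8 FPKM. Cathepsin B (KWMTBOMO10376), a lysosomal cysteine protease, stood out at 683, 704 and 693 FPKM, against 147 ± 6.62 FPKM for cathepsin D (KWMTBOMO14000), and held 34.8% of the lysosomal group. Autophagy genes matched by product name, a short list, took 0.0450% ± 0.00272, with 7 of 16 models at 1 FPKM or more. Atg8 (KWMTBOMO06633), which is coupled to the autophagosome membrane, had 46.2, 43.1 and 39.8 FPKM and held 53.4% of the autophagy group. The spread of that group's share was the widest of the 37 groups outside the bulk proteins, with an SD of 6.04% of the mean. The wider pathways of the deposited KEGG annotation, described below, took more. Autophagy - animal had 62 of 100 models at 1 FPKM or more and took 1.00% ± 0.00182 of the remaining FPKM. Autophagy - other had 16 of 28 and took 0.0784% ± 0.00298.

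Cytoskeletal genes took 3.74%, 3.97% and 4.08% of the remaining FPKM, a mean of 3.93% ± 0.173 (SD, n = 3). Tubulin alpha-1 (KWMTBOMO15911) was the third highest gene outside the bulk proteins, with 3034, 3322 and 3338 FPKM. Tubulin beta-1 (KWMTBOMO12286) had 943, 1013 and 1013 FPKM and beta-actin (KWMTBOMO10175) 853, 930.2 and 948 FPKM. All of these were lowest in siNC-1, which carries most of the spread of this group. Of the tubulin models 5 of 11 (45.5%) reached 1 FPKM and of the actin models 5 of 12 (41.7%), near the 38.2% over all models. The division of reads between similar copies is uncertain.

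**Figure D3:**
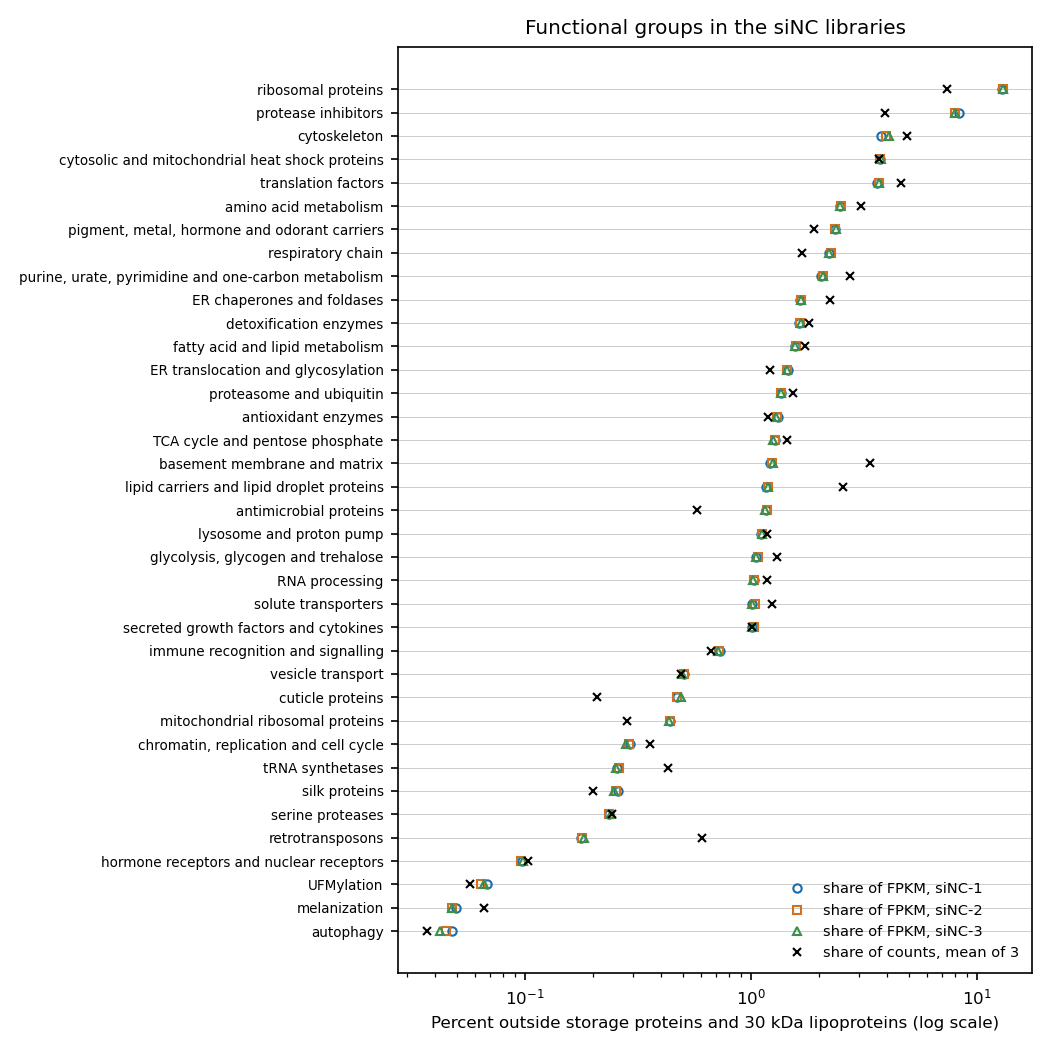
Share of the FPKM outside storage proteins and 30 kDa lipoproteins (log scale) in 37 functional groups, 1 open symbol for each siNC library, with the mean share of counts as a cross. The libraries' symbols nearly coincide in most groups and lie farthest apart for autophagy (0.0423% to 0.0478%), while the cross lies left of them for ribosomal proteins (7.32% of counts against 12.9% of FPKM) and right of them for basement membrane genes (3.36% against 1.23%).

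Energy metabolism was led by the respiratory chain, at 2.23% ± 0.0218 of the remaining FPKM (SD, n = 3), with 67 of 91 models at 1 FPKM or more. The ADP/ATP translocase (KWMTBOMO14732), which exchanges these nucleotides across the inner mitochondrial membrane, had 596, 649 and 638 FPKM. NADH dehydrogenase had 31 of 38 models at 1 FPKM or more, cytochrome c oxidase 10 of 13 and ATP synthase 16 of 24. The tricarboxylic acid (TCA) cycle and pentose phosphate group took 1.27% ± 0.0116, led by isocitrate dehydrogenase (KWMTBOMO05820) at 539, 540.4 and 525 FPKM. Glycolysis, glycogen and trehalose genes took 1.06% ± 0.0128, and glyceraldehyde-3-phosphate dehydrogenase (KWMTBOMO01182) made up 42.5% of it with 803, 834 and 784 FPKM. Trehalose-phosphate synthase (KWMTBOMO07450), which makes the blood sugar of insects, had 72.6, 75.1 and 73.3 FPKM, and a trehalose transporter, Tret1 (KWMTBOMO02622), 149.6, 163 and 151 FPKM. Of 70 models described as Tret1-like transporters, 29 (41.4%) reached 1 FPKM, near the 38.2% over all models.

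Fatty acid and lipid metabolism took 1.57% ± 0.00482 of the remaining FPKM (SD, n = 3). Of its models 108 of 244 (44.3%) were at 1 FPKM or more, against 38.2% over all models. An acyl-CoA desaturase (KWMTBOMO07359), which introduces double bonds into fatty acids, had 642, 667 and 641 FPKM and held 93.2% of the FPKM of 18 desaturase models. A lipase (KWMTBOMO10006), described as lipase 3-like, had 253, 264 and 265 FPKM and held 72.7% of the FPKM of 65 lipase models, 35 of which were at 0. Fatty acid synthase, which builds palmitate, was lower: 5 of 17 models reached 1 FPKM, and the highest held 61.6% of the family's FPKM. The family took 0.0232% ± 0.000509 of the remaining FPKM and 0.112% ± 0.00307 of the remaining counts. Enzymes that break fatty acids down were measured at 203 ± 6.55 FPKM (enoyl-CoA hydratase, KWMTBOMO10114) and 121 ± 3.88 FPKM (acetyl-CoA acetyltransferase, KWMTBOMO13668).

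Amino acid metabolism took 2.48% ± 0.0115 of the remaining FPKM (SD, n = 3), with 66 of 81 models at 1 FPKM or more. S-adenosylhomocysteine hydrolase (KWMTBOMO02061), an enzyme of the methyl cycle, had 654, 664 and 658 FPKM. The serine synthesis enzymes phosphoglycerate dehydrogenase (KWMTBOMO00497) and phosphoserine phosphatase (KWMTBOMO04687) had 444, 436 and 399 FPKM and 257, 255 and 246 FPKM, both lowest in siNC-3. Serine hydroxymethyltransferase (KWMTBOMO10416), which passes carbon from serine to folate, averaged 247 ± 9.09 FPKM.

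Purine, urate, pyrimidine and one-carbon metabolism took 2.06% ± 0.0326 (SD, n = 3), with 33 of 47 models at 1 FPKM or more. The nucleoside diphosphate kinase named abnormal wing disc-like protein (KWMTBOMO08820) had 818, 829 and 817 FPKM. 10-formyltetrahydrofolate dehydrogenase (KWMTBOMO09597) and C-1-tetrahydrofolate synthase (KWMTBOMO15205), both of folate metabolism, averaged 533 ± 19.1 and 241 ± 7.64 FPKM. Uricase (KWMTBOMO01814), which degrades urate, the main nitrogenous waste of the silkworm, had 156, 163 and 158 FPKM.

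Detoxification enzymes took 1.64% ± 0.0148 of the remaining FPKM (SD, n = 3). Of their models 101 of 236 (42.8%) reached 1 FPKM, near the 38.2% over all models. Cytochrome P450 genes, which oxidise foreign and endogenous compounds, had 30 of 82 models (36.6%) at 1 FPKM or more, also near 38.2%, and 35 at 0. Glutathione S-transferases, which conjugate such compounds, had 18 of 27, and glutathione S-transferase 2-like (KWMTBOMO01503) held 57.4% of that family with 393, 406 and 396 FPKM. UDP-glycosyltransferases had 14 of 37 (37.8%), again near the 38.2% over all models. Juvenile hormone esterase (KWMTBOMO14919), which inactivates juvenile hormone in the last larval instar, had 163, 165 and 164 FPKM, a CV of 0.598%. Antioxidant enzymes took 1.30% ± 0.0105, of which catalase (KWMTBOMO00340), which splits hydrogen peroxide, held 51.1% at 1185, 1210 and 1179 FPKM, followed by copper-zinc superoxide dismutase (KWMTBOMO13530) at 302 ± 9.46 FPKM.

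Regulatory genes differed by kind. Of all models outside the bulk proteins 38.2% reached a mean of 1 FPKM, against 18.2% of the hormone and nuclear receptors. Hormone and nuclear receptors took 0.0970% ± 0.00108 of the remaining FPKM (SD, n = 3), with 10 of 55 models at 1 FPKM or more and 20 at 0. Besides the adipokinetic hormone receptors, neuropeptide receptor A1 (KWMTBOMO05398) averaged 34.7 ± 1.01 FPKM, the adiponectin receptor (KWMTBOMO08459) 29.4 ± 0.220 FPKM and the ecdysone-inducible nuclear receptor E75 (KWMTBOMO05671) 11.4 ± 0.198 FPKM. Chromatin, replication and cell cycle genes took 0.288% ± 0.00561, with 83 of 232 models (35.8%) at 1 FPKM or more. RNA processing genes took 1.03% ± 0.00972, with 151 of 174 (86.8%). Cuticle proteins had 27 of 169 models at 1 FPKM or more and 102 at 0. Among them larval cuticle protein 16/17 (KWMTBOMO13135) had 188, 201 and 204 FPKM, and the group took 0.478% ± 0.00926 of the remaining FPKM and 0.208% ± 0.00260 of the remaining counts. Retrotransposon-like models were the most numerous, 1926 in all, and 34 of them reached 1 FPKM. One of these, described as a reverse transcriptase (KWMTBOMO12285), had 131, 139 and 138 FPKM and held 42.3% of that group's FPKM. Repeated copies can share reads, so its level is uncertain.

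Functional groups together accounted for 64.1% ± 0.193 of the remaining FPKM (SD, n = 3), and 2877 models with no described product for 8.81% ± 0.111. Of the 2877, 613 reached 1 FPKM, and 4 were among the 30 highest genes. KWMTBOMO03526 had 2496, 2302 and 2349 FPKM, KWMTBOMO14317 had 1497, 1492 and 1447 FPKM, and KWMTBOMO13751 and KWMTBOMO01267 averaged 723 ± 10.1 and 695 ± 15.8 FPKM. Described genes of the 30 highest that belong to no group were a glucose dehydrogenase (KWMTBOMO09589) at 1120, 1170 and 1154 FPKM, a 27 kDa glycoprotein (KWMTBOMO12939) at 1042 ± 28.2 FPKM, the proline-rich protein EPR1 (KWMTBOMO02808) at 1017 ± 12.4 FPKM and promoting protein (KWMTBOMO11115) at 697 ± 12.8 FPKM.

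The deposited KEGG annotation gave a second grouping. It placed 3298 models in 137 pathways, and 64.9% of these models reached 1 FPKM, against 38.2% of all models. A model may stand in several pathways, so their shares do not add up. Ribosome came first, with 116 of 116 models at 1 FPKM or more, 13.2% ± 0.0792 of the remaining FPKM (SD, n = 3) and member medians of 203, 205 and 205 FPKM. Protein processing in endoplasmic reticulum followed with 130 of 144 models and 4.58% ± 0.0410, and Carbon metabolism with 90 of 117 and 4.49% ± 0.0415. Phagosome stood at 4.03% ± 0.155, with tubulin alpha-1, tubulin beta-1 and beta-actin as its highest members and member medians of only 4.05, 4.19 and 3.76 FPKM.

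Of 129 pathways with at least 5 models, 17 had at least 90% of their models at 1 FPKM or more, and 8 had all of them. Besides Ribosome, complete ones were Protein export (21 of 21, member medians 34.6, 39.3 and 35.3 FPKM), Aminoacyl-tRNA biosynthesis (43 of 43) and One carbon pool by folate (12 of 12, member medians 32.8, 32.4 and 34.1 FPKM). Breakdown pathways differed among themselves. Valine, leucine and isoleucine degradation had 42 of 43 models and member medians of 31.5, 31.4 and 32.4 FPKM, and Fatty acid degradation had 36 of 40 with 17.6, 18.3 and 17.2 FPKM. Lysine degradation had 30 of 43 (69.8%), near the 64.9% of all models with a pathway. Other glycan degradation had 13 of 32 (40.6%), below it. Oxidative phosphorylation had 88 of 116 models and medians of 22.3, 22.8 and 20.9 FPKM. At the other end, 3 pathways had under 25% of their models at 1 FPKM: Neuroactive ligand-receptor interaction (7 of 100), Caffeine metabolism (3 of 18) and Steroid biosynthesis (5 of 26).

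**Figure D4:**
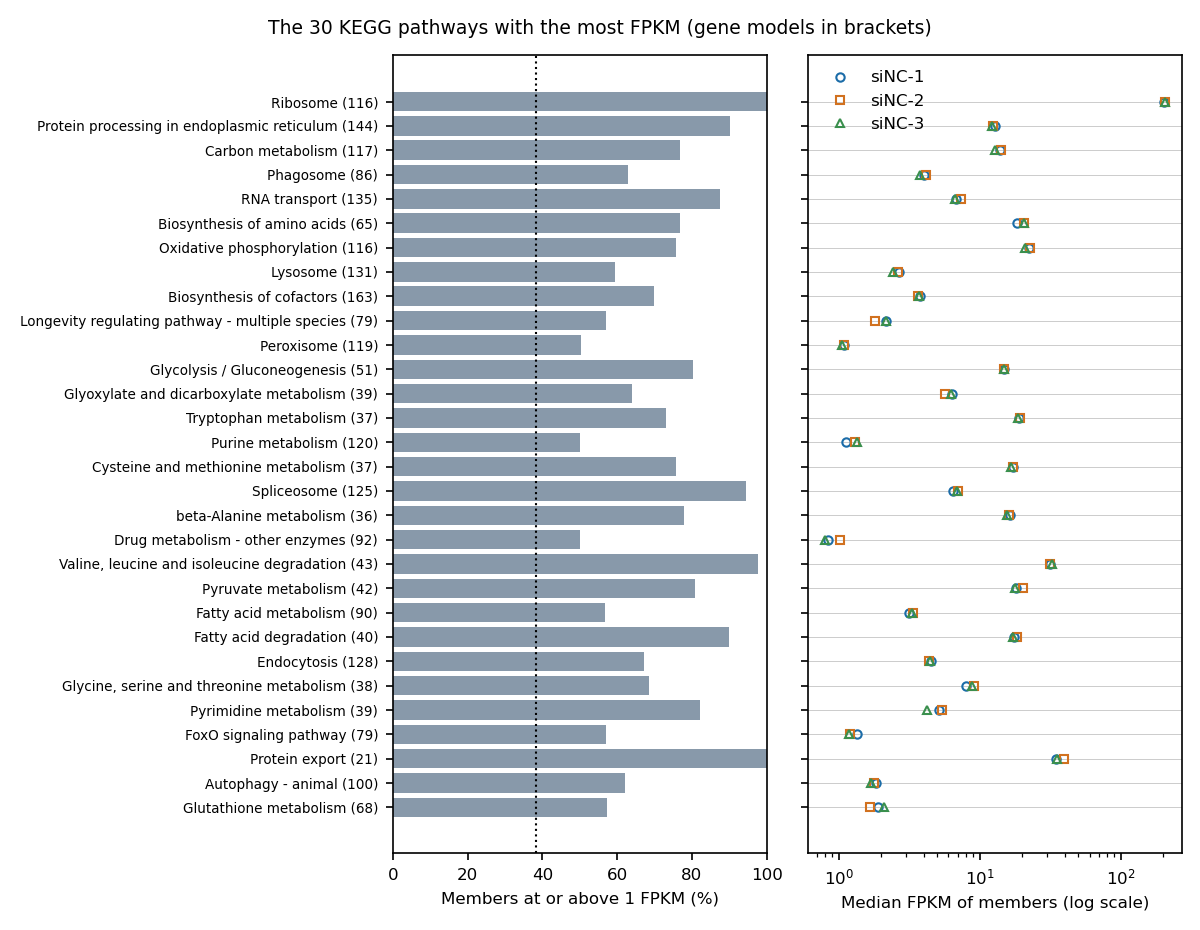
The 30 KEGG pathways with the largest share of FPKM outside storage proteins and 30 kDa lipoproteins, in that order, with the number of gene models in brackets. Bars give the percent of models with a mean of at least 1 FPKM (the dotted line is 38.2%, the percent over all gene models), and symbols give the median FPKM of the members in each siNC library on a log scale, highest for Ribosome at 203 to 205 FPKM. Over all models with a pathway the percent was 64.9%, which is not drawn.

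The spread between the 3 libraries was small in well expressed genes. Among 1965 gene models with a mean of at least 10 FPKM the median CV was 3.94%, the central 90% of models lay between 1.06% and 10.9%, and 93.1% were under 10%. The Poisson CV computed from each model's counts had a median of 3.13%, and 71.2% of the models exceeded their own value. A CV from 3 libraries scatters around its true value, and how many would exceed it by counting error alone was not computed. Without the 26 storage protein and 30 kDa lipoprotein models among them, the CV narrowed with level, with medians of 4.96% at 10 to 30 FPKM, 3.33% at 30 to 100, 2.54% at 100 to 1000 and 1.97% above that. The siNC-2 library was the highest for 50.4% of these models, against 27.9% for siNC-1 and 21.7% for siNC-3, though its median value was only 1.02 times the gene mean. The common biological coefficient of variation, the spread beyond counting error that edgeR estimates, was 4.22% over 8517 models. Allowed to vary with the level of the gene, this estimate ran from 2.71% to 13.4%, with a median of 7.14%. Chi-square per degree of freedom between pairs of libraries was 3.56, 3.55 and 3.11, where sampling noise alone gives about 1, so each library was kept as its own sample.

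The 10 described genes that varied most had means between 10.1 and 33.7 FPKM. The largest CV of a described gene was that of a 30 kDa lipoprotein, PBMHP-12 (KWMTBOMO11902), at 26.8, 41.6 and 32.8 FPKM, or 22.1%, against 3.13% from counting. Gloverin 2 had a CV of 17.9%, and cytochrome c oxidase subunit 6C (KWMTBOMO12193), with 28.8, 30.4 and 21.7 FPKM, 17.2%, both lowest in siNC-3. RNA polymerase II transcriptional coactivator (KWMTBOMO07389) had 16.0, 10.6 and 12.4 FPKM and mitochondrial ribosome-recycling factor (KWMTBOMO11101) 9.30, 12.0 and 13.6 FPKM, so no single library was high or low in all of them. At the other extreme, the CLIP protease KWMTBOMO15224 had 91.3, 91.4 and 91.6 FPKM and prohibitin 2 (KWMTBOMO11061), a mitochondrial membrane scaffold, 82.2, 82.5 and 82.2 FPKM. Their CVs of 0.147% and 0.249% are below the 1.60% and 1.78% of counting error.

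**Figure D5:**
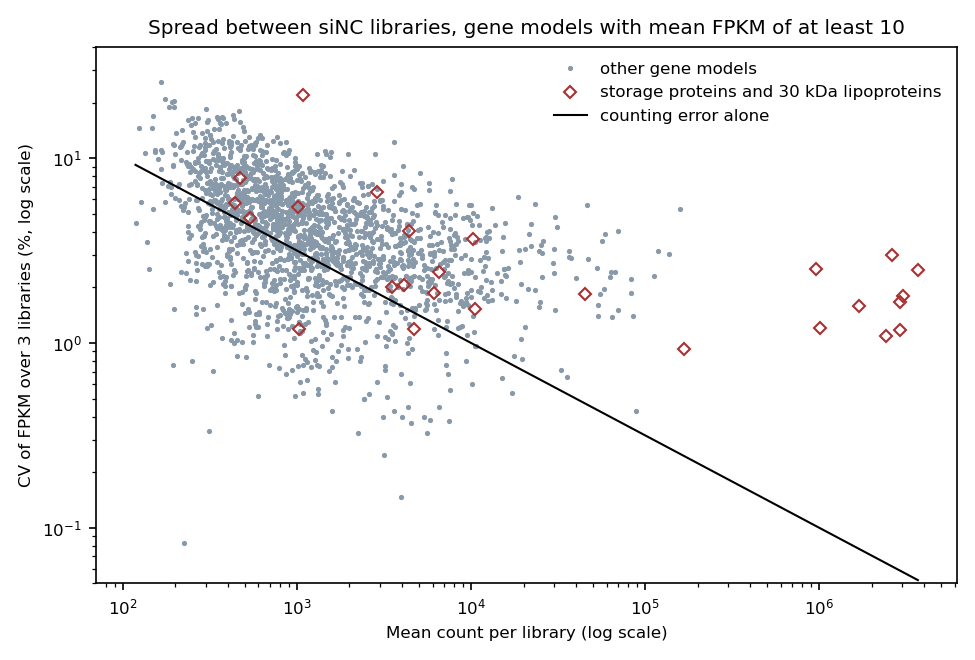
CV of FPKM over the 3 siNC libraries against the mean count per library, both on log scales, for 1965 gene models with a mean of at least 10 FPKM; diamonds are storage proteins and 30 kDa lipoproteins, and the line is the CV that counting error alone would give. Most models lie above the line, and the diamond at the top is the 30 kDa lipoprotein PBMHP-12 at 22.1%.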

How the data were processed

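Per the labels' protocols, sequencing libraries were prepared from total RNA using the SMARTER mRNA-Seq kit. The submitters' processing notes name fastp (read trimming) and HISAT2 (alignment). Which versions, genome build and read counter were used, and how strand and shared reads were treated, is not given in the sources used. The deposited table holds raw read counts per gene model, and FPKM values that the authors scaled by model length and library size, both per the file headers. It also holds NR, Swiss-Prot and KEGG annotation. Lines without a gene (3) were left out, which leaves 16877 gene models.

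Shares are summed FPKM of a group over summed FPKM of all or of the remaining models, in each library, given as mean ± SD. Each model was placed in the first matching group by its NR product (12730 models), or by Swiss-Prot where NR gives none (1270). The members and lists were chosen with earlier results of these data known, and list patterns were corrected by product descriptions after the table was seen. Named genes are UFBP1, BiP, the 30 of highest mean FPKM outside storage proteins and 30 kDa lipoproteins, up to 5 of highest mean FPKM per group and 3 per pathway or marker list, and the 10 largest and 5 smallest CVs among described genes with a mean of at least 10 FPKM. Not all of these are printed. No test between groups was run. The counting CV is that of a Poisson count of the gene's size. edgeR 4.0.16 in R 4.3.3 (filterByExpr, TMM factors 1.00, 1.01 and 0.985, intercept only) gave the biological coefficient of variation, and DESeq2 1.42.0 size factors served as an alternative. Scripts were tested on simulated data. Chi-square used models with at least 40 counts in a pair. Python 3.11.15, pandas 2.3.3 and numpy 2.4.6 were used.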

Additional observations from a re-analysis of the deposited data

How the results depend on the processing

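Shares depend on the denominator and on gene length. The 100 highest genes held 43.0% when only models with at least 1 FPKM were kept and 84.3% with storage proteins and 30 kDa lipoproteins kept in. Ribosomal proteins held 13.0% over models with at least 1 FPKM, 7.32% of counts and 3.36% of all FPKM. By counts, protease inhibitors held 3.92%, antimicrobial proteins 0.576% and lipid carriers 2.55%. The number of transcribed genes was 9675 at 0.1 FPKM, 1975 at 10 FPKM, 9056 at 10 counts and 7073 after rescaling to TPM. With 1 library left out, the biological coefficient of variation ran from 3.83% to 4.89%, the highest being without siNC-2. For chi-square per degree of freedom, leaving 1 library out leaves a single pair. It therefore only repeats the values of the pairs, 3.11 to 3.56, and is no further check. The bulk share stayed at 73.9% to 74.2%, the pathways with at least 90% of models numbered 17 to 19, and 29, 29 and 30 of the 30 highest genes stayed among the 30. No paired analysis was possible because only 1 group was described. With 3 libraries of unstated harvest time, spread over time and between animals cannot be told apart.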
